A study of Mus musculus with 10 samples.

Results

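The tricarboxylic acid cycle is described here through 9 of its enzymes, Cs, Idh3a, Idh2, Ogdh, Dlst, Sucla2, Suclg1, Fh1 and Mdh2, in the kidneys of old Rragc S74N/+ and Rragc +/+ mice. The members were taken by gene symbol from the 13299 genes of the table of normalized counts, and all 9 were present and passed the filter on low values. Idh2 was the only member that passed the test between the genotypes, and it was lower in the Rragc S74N/+ kidneys. The other 8 members did not pass, and 7 of them had a fitted difference below 0.

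The samples were 10 libraries of whole kidney from mice aged 1.5 years on the C57BL/6 strain that the study names for its mice, 5 labelled RagC S74N (KI/+) and 5 labelled RagC S74N (+/+), written here as Rragc S74N/+ and Rragc +/+. Rragc encodes RagC, a small GTPase that relays nutrient levels to mTORC1, a growth-promoting kinase complex, and S74N is an activating mutation that was knocked into the gene with CRISPR, so that every cell of the Rragc S74N/+ mice carried 1 mutant and 1 normal allele. The comparison asked how kidney transcripts differ between old mice with a gain of nutrient signaling and controls of the same age, and the labels give no treatment for either group. The labels give no sex. In all 10 libraries 4 Y-linked genes stood at 26.9 normalized counts or more, and Xist was not among the genes with values, which is the pattern of male mice. Replicates were numbered by their order among the samples, and since nothing in the labels identifies the animals, p-values measure only the spread between these libraries.

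The tricarboxylic acid cycle runs in the mitochondrial matrix, where it oxidizes the acetyl group of acetyl-CoA to carbon dioxide and passes the electrons to the respiratory chain as NADH and FADH2. The same cycle supplies citrate, 2-oxoglutarate, succinyl-CoA and oxaloacetate for the synthesis of lipids, amino acids, heme and glucose. The proximal and distal tubules of the kidney are dense with mitochondria, because salt and solute transport there is paid for by oxidative metabolism.

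Promoter windows, the 250 bases before the annotated transcription start, were read from RefSeq on assembly GRCm38.p6 (the counts themselves were made on GRCm39), with 13 windows for 8 of the 9 members and none for Idh3a. The windows of Idh2, the member that passed the test, and of Sucla2, the one member with a fitted difference above 0, are shown 5′ to 3′ on the strand of the gene, with the matches to the searched motifs in capitals. The Idh2 window lies at chr7:80115351-80115600 on the minus strand and the Sucla2 window at chr14:73552536-73552785 on the plus strand.
Idh2: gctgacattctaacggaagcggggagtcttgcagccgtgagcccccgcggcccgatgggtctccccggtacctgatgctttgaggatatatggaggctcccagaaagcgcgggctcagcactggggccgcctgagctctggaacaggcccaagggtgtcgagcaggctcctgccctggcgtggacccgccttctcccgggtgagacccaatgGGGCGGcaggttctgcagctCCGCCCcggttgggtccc
Sucla2: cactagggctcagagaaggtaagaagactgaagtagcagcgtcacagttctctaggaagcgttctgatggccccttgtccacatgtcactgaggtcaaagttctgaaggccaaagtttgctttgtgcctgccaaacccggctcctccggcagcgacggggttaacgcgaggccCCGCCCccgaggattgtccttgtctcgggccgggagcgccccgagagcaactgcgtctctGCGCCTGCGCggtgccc

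The capitals in the Idh2 window mark GC boxes (GGGCGG, either strand), whose first bases lay 38 and 18 bases before the start. The Sucla2 window held a match to the NRF1 motif (either strand) that began 17 bases before the start and a GC box that began 77 bases before it. GC boxes were present in 8 of the 13 member windows, which belonged to Cs, Dlst, Fh1, Idh2, Mdh2, Ogdh and Sucla2, and in 32.742% of all 32851 mouse windows of the same length. The NRF1 motif occurred in 1 of the 13 member windows, that of Sucla2, and in 3.738% of all windows. The E-box core CACGTG occurred in 3 of the 13 member windows, all of Ogdh, and in 6.021% of all windows. The longer motif TCACGTGA, which contains CACGTG and is bound by TFEB, a transcription factor that mTORC1 phosphorylates, occurred in 0.785% of all windows and in no member window, and the estrogen-related receptor motif TCAAGGTCA occurred in 0.387% of all windows and in no member window. A match or its absence describes the letters in these windows only.

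The libraries held 4488493 to 5797251 reads, as recovered from the steps of the normalized counts, and each member was covered by 59 (Fh1) to 2109 (Mdh2) reads per library. In the limma fit across all 13236 genes that passed the filter, 798 genes were called at an adjusted p under 0.05, 457 higher and 341 lower in Rragc S74N/+. The Rragc S74N/+ replicate 1 library stood apart, being the highest or lowest of its group in 58.7% of the tested genes against 33.5% to 43.6% for the other 9 libraries, and fold changes of members that moved by over 1.5 times without it are given both ways. Summed normalized counts of 15 proximal tubule markers overlapped between the groups, at 138912 to 192156 in Rragc +/+ and 146110 to 186456 in Rragc S74N/+. Kap alone made up most of these sums, with means of 94161 and 103466 beside mean sums of 163235 and 168639. The overlap of the sums therefore says little about the other markers. Of the 15, 10 had a fitted difference below 0 and 5 above, and 1 was called, the glucose transporter gene Slc5a2, which was lower. All 4 distal convoluted tubule markers were called lower, with sums of 4477.1 to 5597 in Rragc +/+ and 1365 to 2130 in Rragc S74N/+, and Pvalb was at 0 in 1 Rragc S74N/+ kidney. Of 5 thick ascending limb markers 2 were called lower (Umod and Egf), with sums over the 5 of 10639 to 14699 and 4987 to 10738. Kcnj1 had a fitted difference below 0 that was not called, at 133 to 184 in Rragc +/+ and 74 to 164 in Rragc S74N/+. The remaining 2 had a fitted difference above 0 that was not called (Slc12a1 and Cldn16, log2 fold changes of 0.04 and 0.44). The median log2 fold change of the 5 was -0.55. Of 9 leukocyte markers 4 were called higher, with sums of 1411 to 1974 and 2382 to 3762. Cd74 alone stood at 733 to 1081 and 1570 to 2078, and all 9 had fitted differences above 0. Of 5 fibroblast and pericyte markers 2 were called higher, with sums of 728 to 1273 and 1159 to 1904. Of 5 intercalated cell markers 2 were called lower and 1 higher, and of 5 podocyte markers 1 was called higher (sums of 697 to 816 and 831 to 1048). No collecting duct or endothelial marker was called by limma (of 5 each, 0 and 1 at an unadjusted p under 0.05). The endothelial marker Kdr stood at 421 to 548 in Rragc +/+ and 236 to 397 in Rragc S74N/+, without overlap. Its log2 fold change was -0.49 (limma adjusted p = 0.0506), and the other 4 endothelial markers had fitted differences above 0. In such bulk tissue fewer cells of a type and less RNA per cell cannot be told apart, and the part of these shifts in the values of the cycle enzymes was not tested.

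Of the 9 members, 1 was called lower and 0 higher, beside 6.03% of all tested genes called in either direction, 2.58% called lower and 3.45% called higher. A fitted log2 fold change below 0 was found for 8 members, against 51.3% of all tested genes. The median over the members was -0.23 and the median over all tested genes was -0.01 on the log2 scale. An unadjusted p under 0.05 was reached by 3 members, Idh2, Cs and Dlst, all lower, against 25.4% of all tested genes in either direction and 12.8% in the lower direction. The groups did not overlap for 1 member, Idh2, against 8.16% of all tested genes, 4.01% lower and 4.15% higher.

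**Figure D1:**
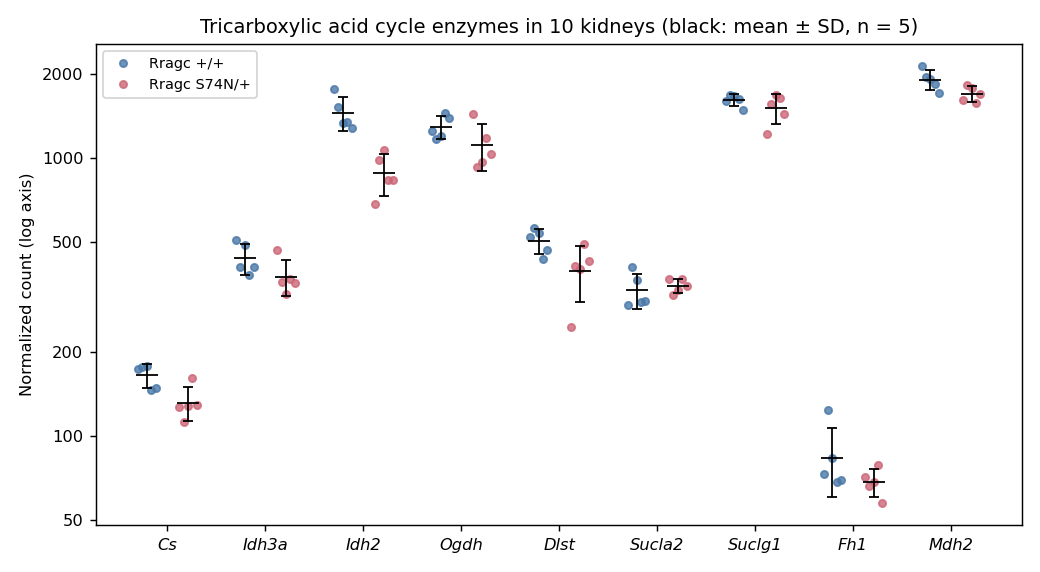
Normalized counts of the 9 members in each kidney on a log axis, with Rragc +/+ in blue and Rragc S74N/+ in red; black bars are the mean ± SD of 5 libraries. The Idh2 points of the groups are separate, at 1285 to 1779 in Rragc +/+ and 683 to 1072 in Rragc S74N/+, and the points of the other 8 members overlap.

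Idh2 encodes the mitochondrial isocitrate dehydrogenase that uses NADP and makes NADPH, a reductant of the matrix, while converting isocitrate to 2-oxoglutarate. Normalized counts of Idh2 were 1779, 1526, 1335, 1353 and 1285 in Rragc +/+ replicates 1 to 5 and 683, 985, 1072, 835 and 835 in Rragc S74N/+ replicates 1 to 5. Every Rragc S74N/+ kidney lay below every Rragc +/+ kidney, and the lowest of all was Rragc S74N/+ replicate 1. The mean fell by 39.4%, from 1456 ± 202 to 882 ± 151 (SD, n = 5 each), and the log2 fold change was -0.73 ± 0.13 (SE), with a 95% confidence interval of -1.01 to -0.45 and a limma adjusted p of 0.00622. The gene ranked 101 of the 13236 tested genes by p. Without Rragc S74N/+ replicate 1 the log2 fold change was -0.64 ± 0.11 (limma adjusted p = 0.00203). On the recovered read counts, edgeR gave -0.71 with an adjusted p of 0.00765 and DESeq2 gave -0.72 with an adjusted p of 5.91e-05, and neither tool called another member.

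Idh3a encodes the catalytic alpha subunit of the isocitrate dehydrogenase that uses NAD, which carries out the same step of the cycle with NADH as the product. Normalized counts of Idh3a were 506, 407, 485, 378 and 405 in Rragc +/+ replicates 1 to 5 and 466, 359, 324, 366 and 356 in Rragc S74N/+ replicates 1 to 5. The groups overlapped through Rragc S74N/+ replicate 1 alone, whose value lay above those of 3 Rragc +/+ kidneys. The log2 fold change of Idh3a was -0.22 ± 0.13, with a 95% confidence interval of -0.49 to 0.05 and a limma adjusted p of 0.283. Without Rragc S74N/+ replicate 1 the groups did not overlap and the log2 fold change was -0.30, with a limma adjusted p of 0.117.

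Cs encodes citrate synthase, which joins acetyl-CoA to oxaloacetate and so opens the cycle. Its normalized counts were 175, 176.9, 179, 147 and 148 in Rragc +/+ replicates 1 to 5 and 127, 112, 128, 162 and 129 in Rragc S74N/+ replicates 1 to 5. Of the Rragc S74N/+ kidneys 4 lay below all Rragc +/+ kidneys, and replicate 4 lay inside their range. The mean was 165 ± 16.0 in Rragc +/+ and 132 ± 18.2 in Rragc S74N/+, and the log2 fold change of -0.33 ± 0.14 (95% confidence interval -0.61 to -0.04) did not pass the test (limma adjusted p = 0.144).

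Ogdh and Dlst encode the first and second enzymes of the 2-oxoglutarate dehydrogenase complex, which makes succinyl-CoA, and the Dlst protein carries the lipoic acid arm that takes the succinyl group. Normalized counts of Dlst were 518, 559.7, 536, 433 and 467 in Rragc +/+ replicates 1 to 5 and 247, 407, 398, 489 and 427 in Rragc S74N/+ replicates 1 to 5. The lowest Dlst value was that of Rragc S74N/+ replicate 1, and Rragc S74N/+ replicate 4 lay within the Rragc +/+ range. The log2 fold change of Dlst was -0.38 ± 0.16 (95% confidence interval -0.71 to -0.05, limma adjusted p = 0.146). When Rragc S74N/+ replicate 1 was left out, Dlst stood at -0.22 (limma adjusted p = 0.245).
Normalized counts of Ogdh were 1256, 1166, 1201, 1457 and 1388 in Rragc +/+ replicates 1 to 5 and 1446, 927, 971, 1183 and 1029.8 in Rragc S74N/+ replicates 1 to 5. In Ogdh the same Rragc S74N/+ replicate 1 was the highest of its group and replicates 2, 3 and 5 lay below all Rragc +/+ kidneys. The log2 fold change of Ogdh was -0.23 ± 0.13 (limma adjusted p = 0.264), and leaving out Rragc S74N/+ replicate 1 gave -0.33 (limma adjusted p = 0.0596).

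Suclg1 encodes the alpha subunit of succinyl-CoA synthetase, and Sucla2 the beta subunit that makes the enzyme specific for ADP. Normalized counts of Sucla2 were 295, 406, 364, 303 and 305 in Rragc +/+ replicates 1 to 5 and 366, 321, 335, 368 and 347 in Rragc S74N/+ replicates 1 to 5. All Rragc S74N/+ values of Sucla2 lay inside the Rragc +/+ range, and the log2 fold change of 0.06 ± 0.12 had a 95% confidence interval of -0.19 to 0.31 (limma adjusted p = 0.784). Normalized counts of Suclg1 were 1609.9, 1689, 1672, 1633 and 1488 in Rragc +/+ replicates 1 to 5 and 1216, 1566, 1689, 1651 and 1445 in Rragc S74N/+ replicates 1 to 5. The groups overlapped, with Rragc S74N/+ replicate 1 lowest and below all Rragc +/+ kidneys, and the log2 fold change of -0.11 ± 0.11 had a 95% confidence interval of -0.34 to 0.12 (limma adjusted p = 0.578). Leaving out that kidney gave -0.03 for Suclg1 (limma adjusted p = 0.895). For Sucla2 the fits that each left out 1 kidney ranged from 0.02 without Rragc +/+ replicate 1 to 0.13 without Rragc +/+ replicate 2.

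Fh1 encodes fumarate hydratase, which adds water to fumarate to give malate, and Mdh2 encodes the mitochondrial malate dehydrogenase, which regenerates oxaloacetate. Normalized counts of Fh1 were 72.7, 124, 83.5, 68.1 and 69.6 in Rragc +/+ replicates 1 to 5 and 70.9, 65.9, 68.0, 78.4 and 57.3 in Rragc S74N/+ replicates 1 to 5. Only Rragc +/+ replicate 2 and replicate 3 lay above all Rragc S74N/+ kidneys, and the log2 fold change of Fh1 was -0.26 ± 0.18 (limma adjusted p = 0.390), or -0.11 with Rragc +/+ replicate 2 left out (limma adjusted p = 0.751). Normalized counts of Mdh2 were 2147, 1959.9, 1922, 1842 and 1712 in Rragc +/+ replicates 1 to 5 and 1617, 1839, 1783, 1581 and 1704 in Rragc S74N/+ replicates 1 to 5. In Mdh2 the groups overlapped between 1712 and 1839, and the log2 fold change was -0.17 ± 0.10, with a 95% confidence interval of -0.38 to 0.04 (limma adjusted p = 0.305).

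The libraries read each transcript from its 3′ end, so the normalized counts were compared between members without division by length. In Rragc +/+ the mean levels ran from Mdh2 (1917), Suclg1 (1619), Idh2 (1456) and Ogdh (1294) through Dlst (503), Idh3a (436) and Sucla2 (335) to Cs (165) and Fh1 (83.6). The ranges of neighbours in this order overlapped for Suclg1 and Idh2, Idh2 and Ogdh, Dlst and Idh3a, and Idh3a and Sucla2, and they did not overlap for the other 4 pairs of neighbours. In Rragc S74N/+ the order was the same except that Ogdh (1111) stood above Idh2 (882), with overlapping ranges.

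The normalized counts of the 9 members summed to 7806 ± 411 in Rragc +/+ (7269 to 8358) and 6526 ± 232.8 in Rragc S74N/+ (6239 to 6766), and these ranges did not overlap. With Idh2 taken out the sums were 6351 ± 236 (5983 to 6579) and 5644 ± 149.4 (5495 to 5878), again without overlap. Idh2 made up 18.6% ± 1.66 of the sum in Rragc +/+ and 13.5% ± 1.96 in Rragc S74N/+. As a share of all normalized counts the 9 members took 0.158% ± 0.0112 (0.143 to 0.170) and 0.139% ± 0.00590 (0.132 to 0.147), and these ranges overlapped. Transcripts of the mitochondrial genome took 37.3% ± 0.916 and 35.7% ± 1.40 of all normalized counts, and of the nuclear-encoded remainder the members took 0.252% (0.231 to 0.266) and 0.217% (0.207 to 0.226), without overlap. With Idh2 taken out, the shares of the other members overlapped between the groups, both of all normalized counts and of the nuclear-encoded remainder. The separation of the sums without Idh2 therefore depended on the scaling between libraries. The sums are a description of members that were chosen with results known, and no test was made on them.

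**Figure D2:**
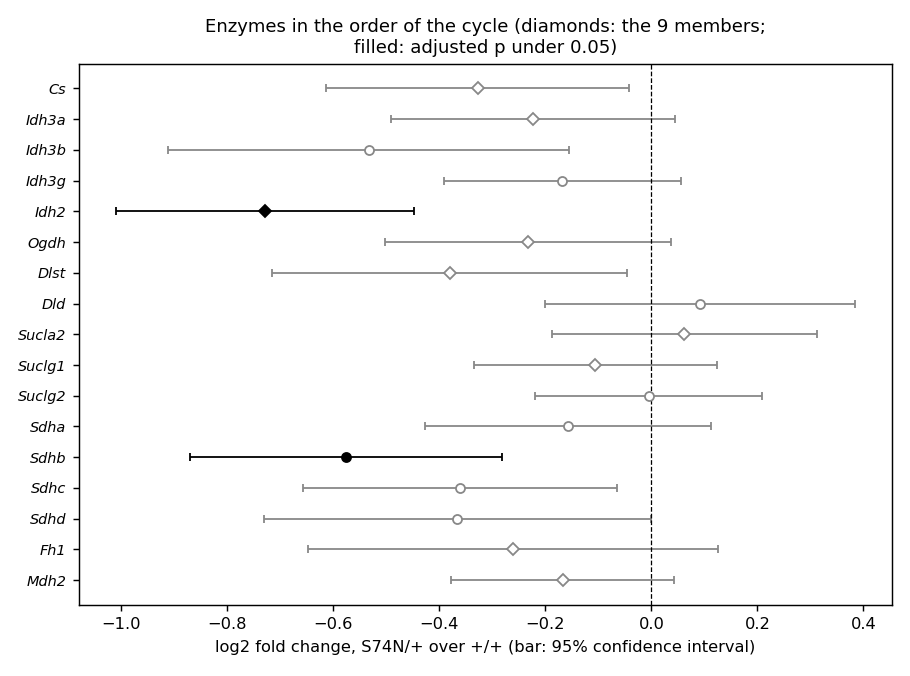
Fitted log2 fold changes, Rragc S74N/+ over Rragc +/+, of 17 nuclear genes of the cycle in the order of its reactions, with 95% confidence intervals from limma; diamonds are the 9 members, circles other subunits and enzymes, and filled symbols passed an adjusted p of 0.05. Idh2 (-0.73) and Sdhb (-0.58) are the filled symbols, and all values but those of Dld and Sucla2 lie below 0.

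Of the 8 other tested mitochondrial enzymes and subunits of the cycle, 1 was called lower, 0 were called higher, and 7 had a fitted difference below 0, with a median log2 fold change of -0.26. Sdhb encodes the iron-sulfur subunit of succinate dehydrogenase, which is also complex II of the respiratory chain. Normalized counts of Sdhb were 1624, 1698, 1335, 1271 and 1316 in Rragc +/+ replicates 1 to 5 and 722, 1148, 1123, 868 and 1037 in Rragc S74N/+ replicates 1 to 5. The groups did not overlap, and the log2 fold change was -0.58 ± 0.14 (limma adjusted p = 0.0240). The call of Sdhb was lost without Rragc +/+ replicate 1, Rragc +/+ replicate 2 or Rragc S74N/+ replicate 4, at limma adjusted p of 0.0713, 0.0784 and 0.0579.

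The partner subunits of the members, chosen after their values were seen, did not pass the test. In the isocitrate dehydrogenase that uses NAD, the log2 fold changes of Idh3b and Idh3g were -0.53 and -0.17 (limma adjusted p of 0.0827 and 0.334), beside -0.22 for Idh3a. In the 2-oxoglutarate dehydrogenase complex, Dld, the third enzyme, which is shared with other dehydrogenase complexes, had a log2 fold change of 0.09 (limma adjusted p = 0.718). Suclg2, the beta subunit of the form of succinyl-CoA synthetase that makes GTP, had a log2 fold change of -0.01 (limma adjusted p = 0.982). Of the other succinate dehydrogenase subunits, Sdha, Sdhc and Sdhd had log2 fold changes of -0.16, -0.36 and -0.37 (limma adjusted p of 0.463, 0.123 and 0.196), and that of Sdha was -0.05 with Rragc S74N/+ replicate 1 left out (limma adjusted p = 0.806).

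Ratios between members within a kidney do not depend on the scaling between libraries, and 4 were compared with exact two-sided permutation tests over all ways of dividing the kidneys 5 to 5, so that no p could fall below 0.00794. The ratio of Idh2 to Idh3a, the isocitrate dehydrogenases that use NADP and NAD, was 3.35 ± 0.395 in Rragc +/+ (2.75 to 3.75) and 2.43 ± 0.675 in Rragc S74N/+ (1.46 to 3.30). The log2 difference of this ratio was -0.51, with an exact permutation p of 0.0317 that became 0.127 after Benjamini-Hochberg adjustment over the 4 ratios, and the groups overlapped. Because Idh2 differed by the fit above, this ratio is not independent of that result. Without Rragc S74N/+ replicate 3 the difference was -0.63, with an adjusted exact permutation p of 0.0317.
The ratio of Ogdh to Dlst was 2.61 ± 0.534 in Rragc +/+ and 3.07 ± 1.54 in Rragc S74N/+, where replicate 1 stood at 5.83 and the other 4 kidneys between 2.27 and 2.44. Its log2 difference was 0.15 with all kidneys (adjusted exact permutation p = 0.746) and -0.11 without Rragc S74N/+ replicate 1 (adjusted exact permutation p = 0.468). The ratio of Sucla2 to Suclg1 was 0.207 ± 0.0236 and 0.234 ± 0.0410, a log2 difference of 0.17 (adjusted exact permutation p = 0.328). The ratio of Mdh2 to Cs was 11.6 ± 0.760 and 13.1 ± 2.34, a log2 difference of 0.16 (adjusted exact permutation p = 0.328). When Rragc S74N/+ replicate 4 was left out, this difference was 0.26 (adjusted exact permutation p = 0.0317).

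**Figure D3:**
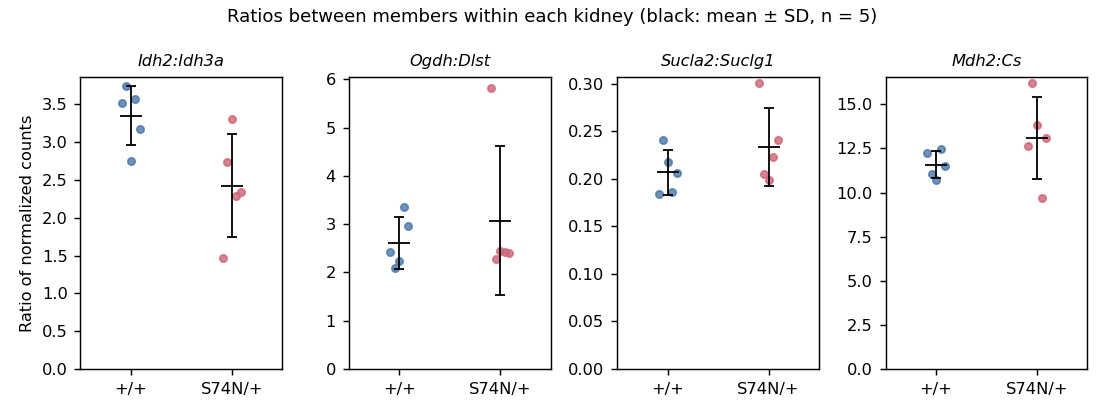
Ratios of normalized counts between members in each kidney, for Rragc +/+ (blue) and Rragc S74N/+ (red); black bars are the mean ± SD of 5 libraries and every axis starts at 0. The Idh2 to Idh3a ratio is 3.35 ± 0.395 in Rragc +/+ and 2.43 ± 0.675 in Rragc S74N/+, and a single Rragc S74N/+ kidney stands at 5.83 in the Ogdh to Dlst panel.

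Sample titles carry running numbers, 3 of each group under 200 and 2 of each group over 200, and the labels do not say whether these mark a batch. The log2 difference of Idh2 was -0.78 under and -0.66 over 200. That of Cs was -0.53 under and -0.03 over 200, and that of Dlst -0.65 and 0.02, so that both lay near 0 in the kidneys with the higher numbers. The outlying Rragc S74N/+ replicate 1 lay in the range under 200. Its Dlst value was 247, against 407 and 398 in the other Rragc S74N/+ kidneys of that range. For Cs it stood at 127, between their values of 112 and 128. For the other members the differences under and over 200 were -0.29 and -0.12 for Idh3a, -0.14 and -0.36 for Ogdh, -0.17 and -0.01 for Suclg1, -0.41 and -0.04 for Fh1, and -0.20 and -0.11 for Mdh2. Sucla2 changed sign, at -0.05 and 0.23. Whether the difference between genotypes varied with the numbers was not tested.

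Among the members, the log2 profile of Cs over the 10 kidneys lay closest to the mean profile of the 9, with a root mean square distance of 0.1001, and that of Idh2 lay farthest, at 0.295. Of the other tested genes, those with the profile most like the mean of the members were Sdhaf2, which helps attach FAD to succinate dehydrogenase, at 0.0519, Vapb at 0.0624, Wasl at 0.0769, Tmx2 at 0.0789 and Agpat3 at 0.0832, against a median of 0.382 over all tested genes. These 5 genes had log2 fold changes of -0.30 to -0.19, and limma called none of them. They were picked as the nearest of all tested genes, by a distance not scaled to the spread of each gene. The closeness was not tested.

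Acetyl-CoA enters the cycle from pyruvate through the pyruvate carriers and the pyruvate dehydrogenase complex, and of 13 genes for this entry and its regulation 1 was called lower and 0 higher, with a median log2 fold change of -0.16. The called gene was Pdp2, a phosphatase that switches pyruvate dehydrogenase on, with normalized counts of 647, 788, 670.0, 618 and 638 in Rragc +/+ replicates 1 to 5 and 289, 413, 414, 460.3 and 485 in Rragc S74N/+ replicates 1 to 5. Every Rragc S74N/+ kidney lay below every Rragc +/+ kidney in Pdp2, and the log2 fold change was -0.72 ± 0.14 (limma adjusted p = 0.00787). Mpc2, a subunit of the mitochondrial pyruvate carrier, stood at 1476 ± 182.5 and 989.7 ± 269 without overlap, a log2 fold change of -0.62 ± 0.18 (limma adjusted p = 0.0542). Without Rragc S74N/+ replicate 1 Mpc2 and Pdhb were called too, Mpc2 with a log2 fold change of -0.42 (limma adjusted p = 0.0238). Mpc2 was likewise called when Rragc S74N/+ replicate 3 was left out (limma adjusted p = 0.0366). Over all 22 alternatives to the main fit, Mpc2 was called under 3. Pdk2, a kinase that switches the complex off, had a log2 fold change of -0.10 (limma adjusted p = 0.704). For Pdk2 it was -0.20 without Rragc S74N/+ replicate 1, while leaving out Rragc +/+ replicate 2, 4 or 5 gave -0.21, -0.01 and -0.06.

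Of 17 tested genes of reactions that fill or drain the cycle, 2 were called higher and 3 lower, and the median log2 fold change was 0.03. The 2 called higher were Pck1, the cytosolic kinase that takes oxaloacetate toward glucose, and Me1, the cytosolic malic enzyme. Normalized counts rose from 1264 ± 240 to 1949 ± 404 for Pck1 (log2 fold change 0.62 ± 0.16, limma adjusted p = 0.0316). For Me1 they rose from 1552 ± 210.2 to 2157 ± 205 (0.48 ± 0.12, limma adjusted p = 0.0238). The groups did not overlap for Me1, and they overlapped for Pck1. The 3 called lower were Oxct1, which activates ketone bodies with succinyl-CoA, Got2, the mitochondrial aspartate aminotransferase, and Me3, a mitochondrial malic enzyme. Oxct1 fell from 4632 ± 620.4 to 2878 ± 549.96 (log2 fold change -0.70 ± 0.14, limma adjusted p = 0.00995), Got2 from 1206 ± 151 to 799 ± 158 (-0.61 ± 0.15, limma adjusted p = 0.0234) and Me3 from 67.8 ± 10.2 to 37.3 ± 8.81 (-0.86 ± 0.20, limma adjusted p = 0.0199), each without overlap. Without Rragc S74N/+ replicate 1, Pccb, a subunit of the carboxylase that feeds propionyl-CoA toward succinyl-CoA, was called lower as well.

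Of 4 cytosolic counterparts of cycle enzymes 1 was called lower, Got1, the cytosolic aspartate aminotransferase, which fell from 215 ± 58.9 to 106 ± 35.1 (log2 fold change -1.06 ± 0.26, limma adjusted p = 0.0263) without overlap. Mdh1 and Idh1, the cytosolic malate and isocitrate dehydrogenases, had log2 fold changes of -0.11 and -0.45 (limma adjusted p of 0.570 and 0.151). Leaving out Rragc +/+ replicate 2 gave -0.29 for Idh1, and leaving out Rragc S74N/+ replicate 2 or Rragc +/+ replicate 4 or 5 gave -0.07, -0.06 and -0.06 for Mdh1. None of 7 tested mitochondrial carriers of cycle intermediates and none of 4 tested genes for lipoic acid attachment was called by limma, and at an unadjusted p under 0.05 there were 3 and 0. The carriers of the highest level were Slc25a10, which exchanges dicarboxylates, and Slc25a13, which exchanges aspartate for glutamate, with log2 fold changes of -0.22 and -0.10, and the latter was 0.04 without Rragc S74N/+ replicate 1. Lias, the lipoic acid synthase, and Mecr, an enzyme of mitochondrial fatty acid synthesis, had log2 fold changes of 0.22 and -0.20. Of 11 regulators of mitochondrial biogenesis 2 were called lower, Ppargc1a, a coactivator of mitochondrial gene expression, and Esrrb, an orphan nuclear receptor (log2 fold changes of -0.52 ± 0.15 and -1.16 ± 0.29, limma adjusted p of 0.0472 and 0.0285). Ppara, a nuclear receptor for fatty acids and the most abundant of the 11, had a log2 fold change of -0.19, which was -0.12 and -0.30 on leaving out Rragc S74N/+ replicate 3 or 4.

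**Figure D4:**
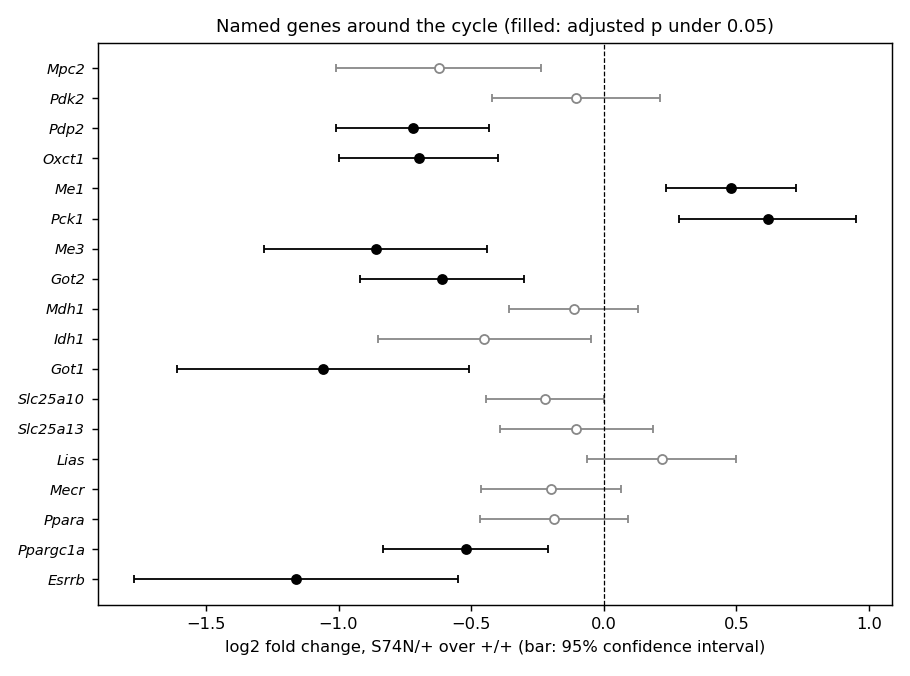
Fitted log2 fold changes, Rragc S74N/+ over Rragc +/+, of 18 named genes that feed, drain or regulate the cycle, with 95% confidence intervals from limma; filled symbols passed an adjusted p of 0.05. Pdp2, Oxct1, Me3, Got2, Got1, Ppargc1a and Esrrb are filled below 0, and Me1 and Pck1 are filled above 0.

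Of these calls, Pdp2 and Oxct1 held without each single library, and the others did not. The call of Me3 was lost without Rragc +/+ replicate 2, Rragc +/+ replicate 4 or Rragc S74N/+ replicate 5, at limma adjusted p of 0.0641, 0.0537 and 0.0544. The call of Got2 was lost without Rragc +/+ replicate 1, 2 or 4 or Rragc S74N/+ replicate 5, at limma adjusted p of 0.0694, 0.0668, 0.0624 and 0.0554. The call of Got1 was lost without Rragc +/+ replicate 1, 2, 3 or 4 or Rragc S74N/+ replicate 5, at limma adjusted p of 0.0514 to 0.0847. The call of Me1 was lost without Rragc +/+ replicate 1, 2 or 4 or Rragc S74N/+ replicate 5, at limma adjusted p of 0.0549 to 0.0782. For Pck1 it was lost without Rragc +/+ replicate 2, 4 or 5 or Rragc S74N/+ replicate 2 or 4, at limma adjusted p of 0.0535 to 0.0883. For Ppargc1a it was lost without Rragc +/+ replicate 1, 2, 3 or 4 or Rragc S74N/+ replicate 1, 2, 4 or 5, at limma adjusted p of 0.0538 to 0.104. For Esrrb it was lost without Rragc +/+ replicate 1, 2, 3 or 4 or Rragc S74N/+ replicate 5, at limma adjusted p of 0.0515 to 0.0763.

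The fold changes of the members were recomputed under 22 alternatives, 10 of which left out 1 kidney each. Idh2 was called under all 22, with log2 fold changes of -0.80 to -0.64 and adjusted p of 5.91e-05 to 0.0360, and no other member was called under any of them. The sign of the fitted difference of each member was the same under all 22, with ranges of -0.40 to -0.25 for Cs, -0.47 to -0.22 for Dlst, -0.33 to -0.15 for Ogdh, -0.30 to -0.14 for Idh3a and -0.32 to -0.11 for Fh1. The values nearest 0 were those of Suclg1 (-0.15 to -0.03), Sucla2 (0.02 to 0.14) and Mdh2 (-0.21 to -0.09).

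**Figure D5:**
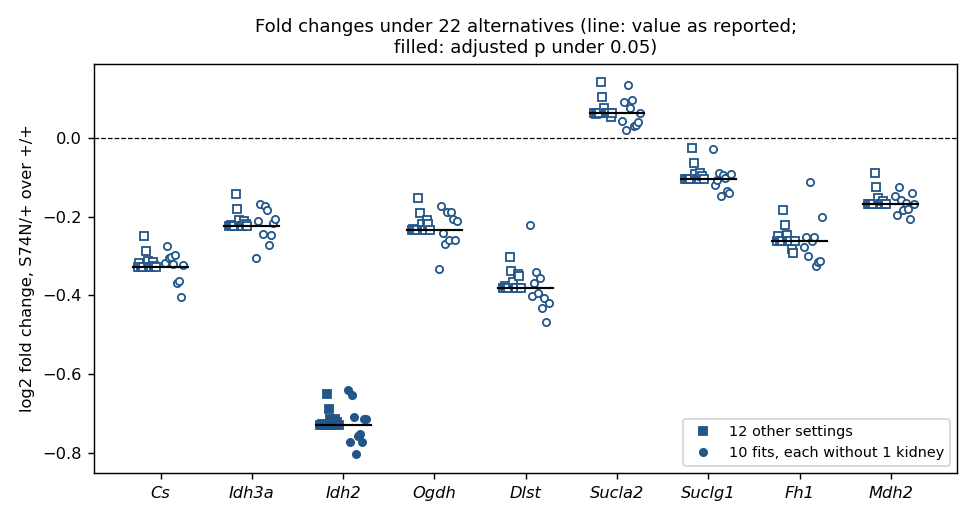
Log2 fold changes of the 9 members under 22 alternatives, with squares for 12 other settings and circles for 10 fits that each left out 1 kidney; lines are the values as reported and filled symbols passed an adjusted p of 0.05. All 22 symbols of Idh2 are filled, between -0.80 and -0.64, and all symbols of the other 8 members are open.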

How the data were processed

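Total RNA from whole kidney (300 ng per sample, quality scores of 6.2 to 7) was made into QuantSeq 3′ mRNA-Seq libraries and sequenced in single reads on a NextSeq 550. Per the labels and the study's methods, the authors checked reads with FastQC 0.11.7, aligned them to GRCm39 with TopHat2 2.0.10, Bowtie 1.0.0 and SAMtools 0.1.19 and counted them by strand with HTSeq 0.6.1 on GENCODE genes. The values deposited by the authors are a signal, read counts per gene divided by a size factor for each library. Whole reads were recovered by dividing each column by its smallest step. In every library 100% of values were whole within 0.001, and the recovered depth was 4488493 to 5797251 reads, which limits the precision of low genes such as Fh1.

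Genes with a normalized count of at least 5 in at least 5 samples were kept (13236 of 13299). Genotypes were compared with limma 3.58.1 (R 4.3.3, eBayes with a variance trend) on log2(normalized count + 1), two-sided, with Benjamini-Hochberg adjustment over all tested genes and a threshold of 0.05. The limma fold changes are on the log2(normalized count + 1) scale, which understates changes of low genes; those of edgeR and DESeq2 come from models of the reads, ratios between members were taken after 1 was added to both normalized counts, and the differences within title-number ranges are of log2(normalized count + 1). edgeR 4.0.16 and DESeq2 1.42.0 on the recovered reads, other pseudocounts, filters and scalings, the title-number ranges as a block and leaving out each kidney were alternatives. The alternatives for genes around the cycle, and the list counts without 1 kidney, were chosen after seeing the data. The scripts were tested on simulated data.

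The members and lists were chosen with earlier results of these data known. Named were all members; of each pathway list, the called genes and the 2 with the highest mean; and the 5 genes nearest in profile to the mean of the members. For each member, none of the 351 stretches of 50 bases in the last 400 bases of its longest coding transcript (GENCODE, GRCm38) occurred in a transcript of another gene. Levels of Rragc do not check the genotype labels, since a knock-in of this kind leaves the transcript in place; its log2 fold change was -0.22 (limma adjusted p = 0.508). Of the listed genes, Ogdhl, Slc25a18, Slc25a22 and Cd79a were not analysed here, Mut is an older symbol of the tested Mmut, and Lipt2 was removed by the filter. Some genes around the cycle are not reported here and were left out of their lists.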

Additional observations from a re-analysis of the deposited data

Results flagged for a closer look

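In 28 searches of 5 kidneys each for a value far from the other 4, over the members and their ratios, 2 were found, where chance gives about 1 in 20, or 1.4. Fh1 stood at 124 normalized counts in Rragc +/+ replicate 2, against 68.1 to 83.5 in the other Rragc +/+ kidneys. The ratio of Ogdh to Dlst stood at 5.83 in Rragc S74N/+ replicate 1, the library that was the highest or lowest of its group in 58.7% of genes, against 2.27 to 2.44 in the other Rragc S74N/+ kidneys.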

How the results depend on the processing

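Every fold change of a member kept its direction and its side of the threshold under the 22 alternatives. The number of genes called in the whole table, 798 as reported (457 higher, 341 lower), was 391 without a variance trend (241 higher, 150 lower) and 1350 with DESeq2 (782 higher, 568 lower). When 1 kidney was left out it ranged from 311 to 902, and the 4 counts that moved most were 368, 311 and 383 on leaving out Rragc +/+ replicate 1, 2 or 4 and 371 on leaving out Rragc S74N/+ replicate 5. These fits rest on fewer samples; the cause of the other moves was not tested. Scaling to equal library totals moved the share of calls that were higher from 57.3% to 76.1% (718 higher, 225 lower), and the median of all genes from -0.01 to 0.06. With equal totals after mitochondrially encoded genes were left out, the share was 68.9% (608 higher, 274 lower). Under equal totals the members' median was -0.15, beside 0.06 for all genes, and 8 of 9 members lay below 0.

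Of the ratios, Ogdh to Dlst reversed to -0.11 without Rragc S74N/+ replicate 1 and ranged from -0.11 to 0.24 when 1 kidney was left out. Idh2 to Idh3a passed the test at -0.63 without Rragc S74N/+ replicate 3 (range -0.63 to -0.34), and Mdh2 to Cs passed at 0.26 without Rragc S74N/+ replicate 4 (range 0.079 to 0.26). Of the genes around the cycle, the carrier Slc25a13 reversed from -0.10 to 0.038 without Rragc S74N/+ replicate 1. Over the 9 members and the genes named from the pathway lists for their call or level, 587 values under an alternative kept direction and side of the threshold and 50 did not. Without the variance trend the limma calls of Sdhb, Me1, Pck1, Got2, Got1, Ppargc1a and Esrrb were lost, and under equal library totals, with or without mitochondrially encoded genes, that of Ppargc1a. Esrrb had no value under a minimum mean of 50. No paired analysis was made, because nothing in the labels matches kidneys across the genotypes. Depth limits Fh1 most, at 59 to 119 reads per library.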
